A study of Rattus norvegicus with 12 samples.

Results

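Week 15 of nitrosamine carcinogenesis in the rat esophagus was compared with week 6, by taking the 3 samples titled NMBA week 15 and the 3 titled NMBA week 6. These are 6 of the 12 samples of the series, which also holds 3 normal controls and 3 samples of NMBA week 29. All rats of the 3 NMBA groups received N-nitrosomethylbenzylamine (NMBA), a nitrosamine that causes tumors in rat esophagus. The dose was 0.3 mg per kg of body weight in subcutaneous injections of 0.2 ml, given 3 times per week for 5 weeks. Control rats received the solvent alone, a mixture of dimethyl sulfoxide and water, on the same schedule, and no week of sampling is given for them. The labels call week 6 the early and week 15 the middle stage of tumor development. They do not settle whether the weeks count from the start or the end of dosing, and they describe NMBA-treated tissue without saying how much of each sample was tumor. For each sample, part of the esophagus was stripped of submucosa and muscle, frozen, and its total RNA hybridised to 1 Affymetrix array. Separate animals are not stated for the arrays, and a p-value therefore covers only the spread between samples, which may be technical.

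The lining of the rat esophagus is a stratified squamous epithelium. Its basal keratinocytes divide on a basement membrane, and their progeny move upward, change their keratins and build a cornified envelope of cross-linked proteins before they are shed. Under it lie a connective tissue of fibroblasts, vessels and nerves, and then, in the rat, an outer wall of striated muscle, which is of the skeletal type and not smooth muscle. The comparison therefore separates genes of the epithelium, of the stroma and of muscle.

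Between weeks 6 and 15 epithelial genes were mostly higher and striated muscle genes almost all lower. Stromal genes were mostly not called, and more of them fell than rose. Of 205 genes in 9 epithelial lists, 159 rose and 6 fell at week 15, with a median log2 difference of 1.01. Of 145 genes in 6 muscle lists, 135 fell and 2 rose, with a median of -1.72. Of 247 genes in 9 stromal lists, 75 fell and 28 rose, with a median of -0.10. Over all 14217 genes the median was 0.07. A call is an adjusted p under 0.05 in limma, a linear model fitted to every probe set, and by it 22.7% of all genes rose and 21.2% fell, while 37.8% of 31042 probe sets were called in either direction.

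**Figure D1:**
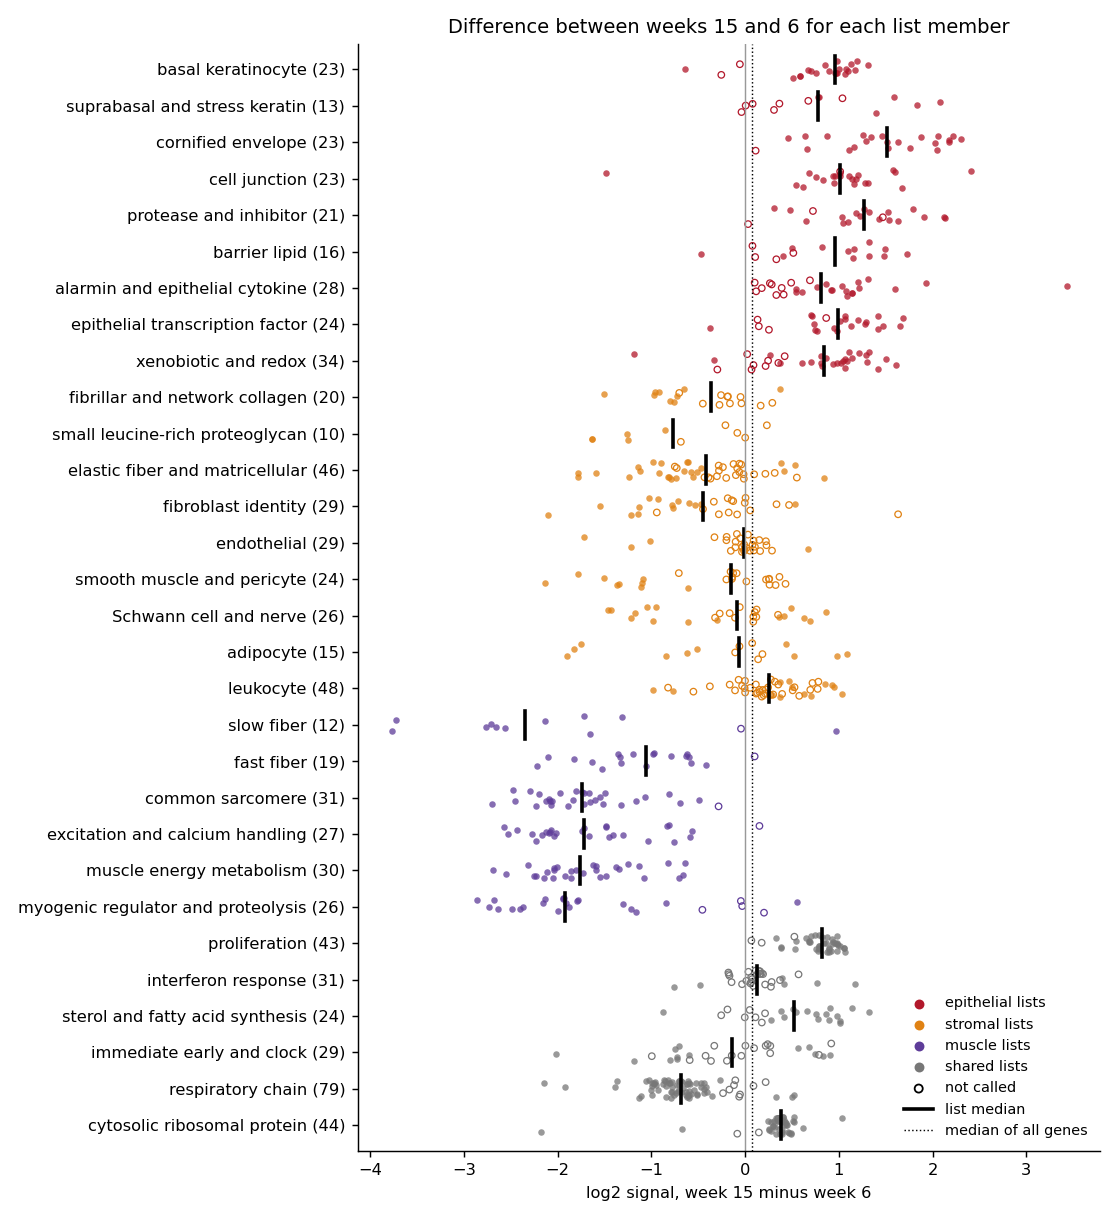
Difference in log2 signal between week 15 and week 6 (horizontal axis) for every measured gene of 30 lists (vertical axis, number of genes in brackets). Filled points were called by limma, open points were not, black bars are list medians and the dotted line is the median of all genes, 0.07. Epithelial list medians lie between 0.77 and 1.52, muscle list medians between -2.35 and -1.06.

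The tissue label was checked against defining markers. The squamous keratin genes Krt13 and Krt4 were bright on all 6 arrays, from 12.99 to 14.55 on the deposited log2 scale, where all signals ran from 2.49 to 14.71. So was Acta1, skeletal muscle actin, from 14.03 to 14.71, although the protocol removed the muscle. Defining markers of fat were near the floor, with Adipoq at 4.04 ± 0.13 (SD, n = 3) at week 6 and 4.18 ± 0.01 at week 15. The mean log2 signal of the 145 muscle genes, called the muscle score here, was 10.83, 10.85 and 10.86 at week 6 and 9.30, 9.85 and 8.55 at week 15. It was 9.96, 10.44 and 10.19 in controls and 10.65, 10.90 and 10.91 at week 29, so week 6 lay above every control and week 15 below. The 3' minus 5' signal of the GAPDH array controls, larger in degraded RNA, was 0.11, 0.15 and 0.07 at week 6 and 0.60, 0.22 and 0.37 at week 15. Week 15 replicate 3 had the least muscle signal and week 15 replicate 1 the largest GAPDH difference. When limma was given the muscle score as a covariate it called 0 probe sets, with 5158 at an unadjusted p under 0.05. In that fit some standard errors were larger, such as that of Krt5 (0.33 against 0.16). Those of some muscle genes were smaller, such as that of Ppp1r3a (0.21 against 0.39). S100a9, a calprotectin subunit, was at 4.50 ± 0.90 with the covariate against 3.43 ± 0.43 without it. Ogn, osteoglycin, was at -1.77 ± 0.41 against -1.63 ± 0.18, so these 2 differences were at least as large. Others shrank or turned, such as Krt5 (0.50 against 1.00), Igfbp5 (-0.13 against -1.78) and Mki67 (-0.10 against 1.05). Of 206 named genes, 24 that were called without the covariate turned direction with it. Uncalled genes that turned, such as Acta1 (0.41 against -0.28), are not in this count. The score is itself a mean of genes that mostly fell. In bulk tissue, fewer cells of a type and less RNA per cell cannot be told apart.

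The basal layer of the epithelium was higher at week 15 throughout most of its list. Of 23 basal keratinocyte genes, 20 rose and 1 fell. The signal of Krt5, the basal keratin of stratified epithelia, was 12.62, 12.51 and 12.50 at week 6 and 13.57, 13.37 and 13.70 at week 15. Every week 15 array lay above every week 6 array, as it did for 30.1% of all genes, and Krt5 rose by 1.00 ± 0.16 (SE, limma adjusted p = 0.000609), a 2.01-fold difference. Its partner Krt14 rose by 0.97 ± 0.23. Sfn, the 14-3-3 sigma protein of keratinocytes, rose by 1.31. The growth factor receptor gene Fgfr3 rose by 1.17, and Itgb4, the beta chain of the hemidesmosome integrin, by 1.13. Igfbp2, which binds insulin-like growth factors, rose by 1.10. Tp63, the master regulator of stratified epithelium, rose by 1.19 ± 0.24 on its brightest probe set, while its other probe set was at 0.48 and was not called (limma adjusted p = 0.199). Sox2, a transcription factor of the foregut epithelium, rose by 0.96. Sox2 was at 0.76 and not called without week 15 replicate 3. Its other probe sets were at 1.52 and 0.20, not called, and at 0.97, called. The exception, named after its values were seen, was Dst, a cytolinker with epithelial, nerve and muscle forms. Its brightest probe set fell by 0.64, and of the other 4 probe sets 2 fell (-1.17 and -0.91) and 2 rose (1.06 and 1.16).

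In the list of suprabasal and stress keratins 6 of 13 genes rose and none fell. Krt13 and Krt4, the main suprabasal pair of the esophagus, rose by 0.77 ± 0.19 and 0.78 ± 0.17 near the top of the array's range. Krt6c, a keratin of activated epithelium, was 9.91, 10.08 and 10.53 at week 6 and 12.47, 12.25 and 12.05 at week 15. The groups did not overlap, and the rise was 2.08 ± 0.54 (limma adjusted p = 0.01). Its other probe sets were at 2.35, called, and at 0.27, not called. In controls Krt6c was 12.16 ± 0.49 (SD, n = 3), close to the week 15 level, and in week 29 samples 9.28 ± 1.5. Krt17, a stress keratin, rose by 1.84, but was at 1.67 to 1.87 and not called when any array of the 6 but week 15 replicate 3 was left out. The signal of Krt78 was 7.44, 7.43 and 7.99 at week 6 and 7.96, 9.75 and 9.91 at week 15, and its groups overlapped because week 15 replicate 1 lay below week 6 replicate 3. It was at 1.23 and not called without week 15 replicate 3. The keratins of dry epithelium, named after their values were seen, were not called, with Krt10 at -0.04 and Krt1 at 0.31.

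Genes of the cornified envelope had the largest list median of the epithelium, 1.52, and 22 of 23 rose. The member not called was Ivl, involucrin, named after its values were seen, which was at 0.11 with a signal near the floor. The small proline-rich proteins, which are cross-linked into the envelope, stood close together, with Sprr1a rising by 2.02 ± 0.48, Sprr1b by 2.05 ± 0.32, Sprr2d by 2.18 ± 0.30 and Sprr3 by 2.21 ± 0.44. Sprr1b was 8.02, 7.64 and 8.42 at week 6 and 9.35, 10.33 and 10.55 at week 15. Its groups did not overlap, and it was 4.14-fold higher at week 15 (limma adjusted p = 0.000507). Tgm1, the transglutaminase that makes the cross-links, was 6.96, 6.77 and 7.67 at week 6 and 8.45, 9.87 and 9.59 at week 15, and rose by 2.17 ± 0.32 (limma adjusted p = 0.000353). Controls were at 8.43 ± 0.26 (SD, n = 3), so its week 6 arrays lay below and 2 of its 3 week 15 arrays above every control. Cnfn, cornifelin, rose by 2.06 with overlapping groups, since week 15 replicate 1 was at 9.80 and week 6 replicate 3 at 9.86. Stfa3, a stefin protease inhibitor, rose by 2.30 on its brightest probe set, while its other probe set was at 0.33 and was not called. Week 15 replicate 1 was the lowest week 15 array for Sprr1a, Sprr1b, Sprr2d, Sprr3, Tgm1, Cnfn and Stfa3, and its envelope score was 9.60 against 10.47 and 10.32.

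The stretch of 250 bases before the gene start is shown for 2 of these genes, chosen because it holds a match to TGANTCA on either strand. This pattern takes any middle base. It is thus looser than TGACTCA or TGAGTCA, the core letters of AP-1, a transcription factor known from Sprr promoters. Matches are in capitals. The sequences are from RefSeq, build GRCr8, at chr2:180752626-180752875 (minus strand) for Sprr1a and chr2:180706356-180706605 (minus strand) for Sprr1b.
Sprr1a: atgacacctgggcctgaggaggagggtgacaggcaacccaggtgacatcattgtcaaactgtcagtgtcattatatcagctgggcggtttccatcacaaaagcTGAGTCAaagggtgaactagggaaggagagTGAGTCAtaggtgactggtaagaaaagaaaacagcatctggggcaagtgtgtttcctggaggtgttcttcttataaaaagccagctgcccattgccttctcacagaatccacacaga
Sprr1b: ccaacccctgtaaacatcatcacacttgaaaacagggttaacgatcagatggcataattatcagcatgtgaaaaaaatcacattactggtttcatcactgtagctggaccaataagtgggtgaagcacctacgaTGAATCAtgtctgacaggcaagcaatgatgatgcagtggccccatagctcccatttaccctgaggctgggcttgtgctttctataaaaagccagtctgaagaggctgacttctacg
The matches in Sprr1a start 147 and 117 bases before the gene start, and the match in Sprr1b starts 116 bases before it. The latter reads TGAATCA and differs from the AP-1 core at the middle base. RefSeq promoters were at hand for 21 of the 23 cornified envelope genes, and 9 of them (42.9%) held TGANTCA. Among 116 epithelial list genes that rose, 24 did (20.7%), against 5.35% of 11700 array genes with a promoter. A match describes letters in a window and was not tested as a site.

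Cell junction genes rose in 21 of 23 cases, with a median of 1.01. The desmosome cadherin gene Dsc1 rose by 1.68 ± 0.30 and Cdsn, the corneodesmosin that binds outer cells together, by 1.57 ± 0.22. The connexin gene Gjb2 (connexin 26) moved furthest, by 2.41. Gjb6 (connexin 30) rose by 1.59, but was at 1.26 to 1.55 and not called without week 6 replicate 1 or 2 or week 15 replicate 2 or 3. Gjb2 was 6.12, 5.71 and 7.15 at week 6 and 7.65, 9.56 and 8.98 at week 15. The lowest week 15 array, replicate 1, lay only slightly above the highest week 6 array, replicate 3, and limma gave an adjusted p = 0.00311. The member that fell was Pkp2, a plakophilin that is also a heart and muscle junction gene, by 1.49 ± 0.20 (limma adjusted p = 0.000223). Its signal was 7.49, 7.29 and 7.18 at week 6 and 5.92, 6.24 and 5.34 at week 15, with all week 15 arrays below all week 6 arrays.

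Proteases of the outer epithelium and their inhibitors rose in 18 of 21 cases, with a median of 1.27. Slpi, a secreted inhibitor of neutrophil elastase, was 10.10, 10.15 and 10.82 at week 6 and 12.04, 12.79 and 12.61 at week 15. Its lowest week 15 array lay above the highest control, at 11.48, and the rise was 2.12 ± 0.26 or 4.34-fold (limma adjusted p = 0.000127). The intracellular serpin genes Serpinb12 and Serpinb11 rose by 2.13 and 1.90. Klk10, a kallikrein, rose by 1.79 and Asprv1, the aspartic protease that processes filaggrin in skin, by 1.63.

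In the barrier lipid list 11 of 16 genes rose and 1 fell. Aloxe3, a lipoxygenase of the skin barrier, rose by 1.73 ± 0.38. The dihydroceramide desaturase gene Degs2 rose by 1.48, the ceramidase gene Acer1 by 1.32 and the fatty acid elongase gene Elovl6 by 1.32. Lypd3, a surface protein of suprabasal keratinocytes, rose by 1.49. The 1 member that fell, Plbd1, a phospholipase-like gene named after its values were seen, was at -0.47, or at -0.38 and -0.34 and not called without week 6 replicate 3 or week 15 replicate 1. Its other probe set was at 0.18.

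Alarmins and epithelial cytokines rose in 18 of 28 cases, with a median of 0.81. S100a9, a subunit of calprotectin found in neutrophils and stressed keratinocytes, was 3.97, 4.28 and 4.37 at week 6 and 9.01, 7.31 and 6.59 at week 15. All week 15 arrays lay above all week 6 arrays, but they spread over 2.41 log2 units, and the order differed from that of the envelope genes, with replicate 1 highest. Its partner S100a8 had the same order, 6.20, 5.60 and 4.35, against 3.74, 3.79 and 3.82 at week 6, and rose by 1.60 ± 0.32 (limma adjusted p = 0.00253). The week 6 values of both genes lay near the floor, which limits how exactly the size of these rises is known. Defb4, a beta-defensin, was 8.29, 8.50 and 8.54 at week 6 and 9.46, 10.81 and 10.85 at week 15, with replicate 1 the lowest of the week 15 arrays, and rose by 1.93 ± 0.30. Defb1 rose by 1.31 and Ereg, a ligand of the EGF receptor, by 1.22. Ptgs2, the inducible cyclooxygenase, stayed between 2.75 and 3.17 in all 6 arrays, near the floor, and was at 0.18 ± 0.10 (limma adjusted p = 0.173).

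Transcription factors of the epithelium rose in 19 of 24 cases and 1 fell, with a median of 1.00. Znf750, a zinc finger factor of terminal differentiation, was 9.10, 8.13 and 8.93 at week 6 and 9.87, 10.43 and 10.90 at week 15. The groups did not overlap and the rise was 1.68 ± 0.38 (limma adjusted p = 0.00476). The grainyhead-like genes Grhl3 and Grhl1, which control barrier and junction genes, rose by 1.65 ± 0.32 and 1.42 ± 0.22. Trim29 rose by 1.47 and Pitx1, a homeobox gene, by 1.42. Trps1, a GATA-type repressor named after its values were seen, fell by 0.38, but was at -0.38 to -0.27 and not called without week 6 replicate 2 or 3 or week 15 replicate 2.

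Xenobiotic and redox genes rose in 24 of 34 cases and fell in 2. NMBA itself is activated by cytochrome P450 enzymes, and the list holds phase I, phase II and glutathione genes. Cyp3a9 rose by 1.61 ± 0.43 and Cyp2s1 by 1.32. The sulfotransferase gene Sult2b1 rose by 1.51, and Gpx2, an epithelial glutathione peroxidase, by 1.42 ± 0.29. Nqo1, a quinone reductase and a known NRF2 target, was 11.26, 10.59 and 11.04 at week 6 and 11.97, 12.32 and 12.50 at week 15 and rose by 1.30. Cyp2a3, named after its values were seen, is a nasal and esophageal P450 of the rat linked to nitrosamine activation. It was 4.86, 4.52 and 4.84 at week 6 and 5.75, 5.34 and 6.09 at week 15, while controls were at 4.68, 4.29 and 4.39, so that its week 15 arrays lay above the arrays of both. The 2 members that fell were also named after their values were seen. Txnrd1, thioredoxin reductase, fell by 0.33, and was at -0.25 and not called without week 15 replicate 1. Gsta1, a glutathione transferase gene, was 11.78, 11.60 and 11.67 at week 6 and 10.31, 10.69 and 10.49 at week 15, and fell by 1.19 ± 0.14 (limma adjusted p = 0.000116).

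**Figure D2:**
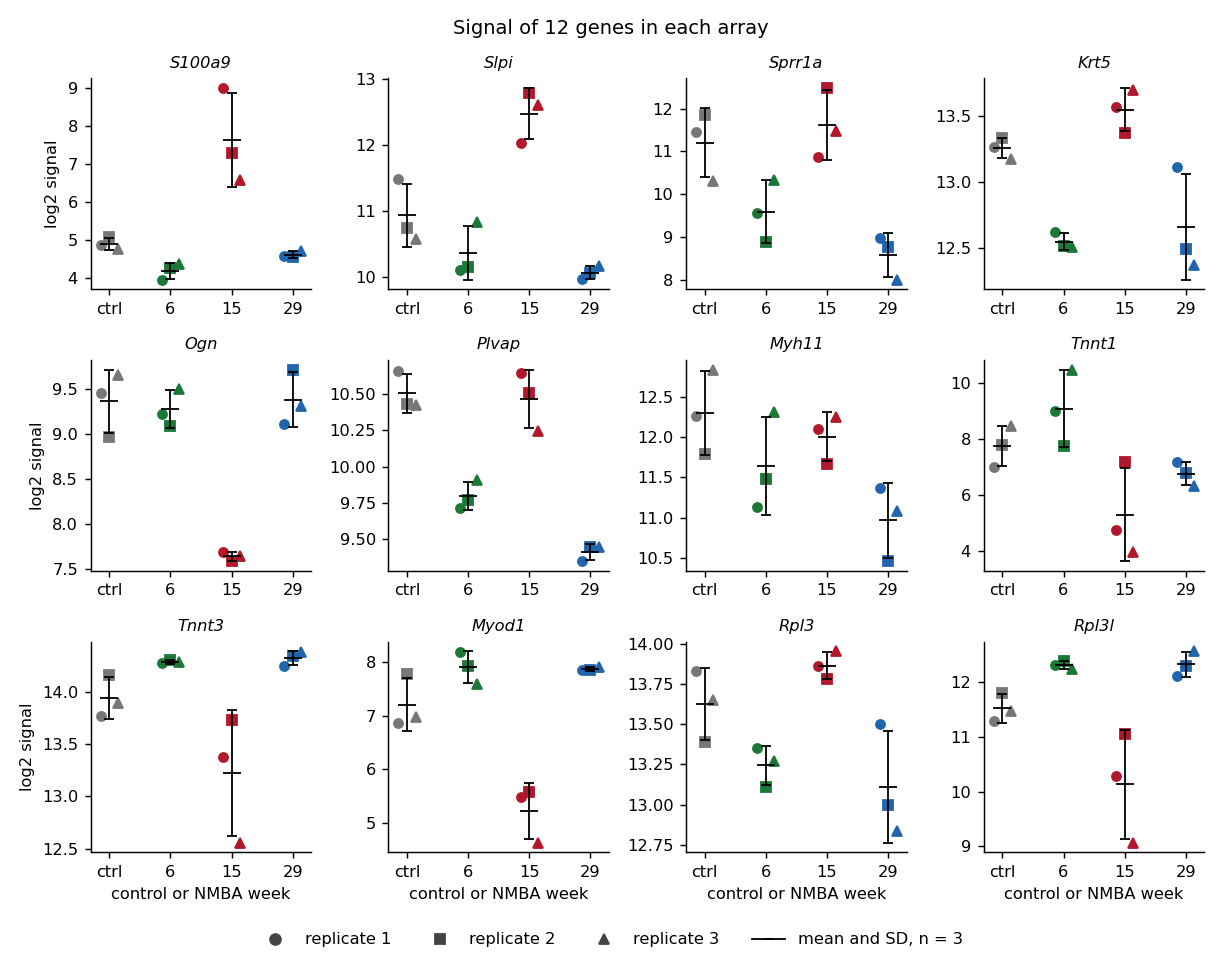
Log2 signal (vertical axes, a separate scale for each gene) of 12 genes in the controls and at NMBA weeks 6, 15 and 29 (horizontal axes), with points for arrays, their shape for the replicate number, and bars for mean and SD of 3 arrays. S100a9 and Slpi stand above the other groups at week 15, Ogn and Myod1 below them, and Myh11 overlaps between weeks 6 and 15.

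Both weeks were also set beside the controls. All 3 week 6 arrays were below all 3 controls for 116 of the 205 epithelial genes, against 22.3% of all genes, and above them for 5, against 20.4%. All 3 week 15 arrays were above all controls for 68, against 11.4% of all genes, and below them for 3, against 17.4%. The 2 counts share the controls. The share above controls at week 15 was 16 of 34 for xenobiotic genes and 11 of 24 for transcription factors, but 4 of 23 for basal and 4 of 23 for envelope genes.

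Scaling each array by its own basal keratinocyte genes subtracted 0.76 from every difference and put the median of all probe sets at -0.68. On that scale 75.4% of all probe sets were called lower and 0.596% higher. Per basal signal, cornified envelope genes were called higher in 16 of 23 cases, with a list median of 0.75, and protease and inhibitor genes in 10 of 21, with a median of 0.51. Junction genes were higher in 5 of 23 cases, transcription factors in 7 of 24, xenobiotic genes in 5 of 34 with 9 lower, and alarmin genes in 3 of 28 with 4 lower. The envelope score minus the basal score was -1.60, -1.81 and -1.12 in the week 6 arrays and -1.39, -0.26 and -0.77 in the week 15 arrays, so the groups overlapped on this difference through week 15 replicate 1 and week 6 replicate 3. With a muscle score covariate, under which nothing was called, the list medians were 1.10 for the envelope, 1.03 for proteases and inhibitors and 0.23 for basal genes. With the GAPDH difference as a covariate 21 of 23 envelope, 8 of 23 basal and 11 of 34 xenobiotic genes were called higher, against 4.9% of all probe sets. The list medians in that fit were 1.69, 0.79 and 0.77, so basal and xenobiotic genes lost calls with little change in their medians.

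**Figure D3:**
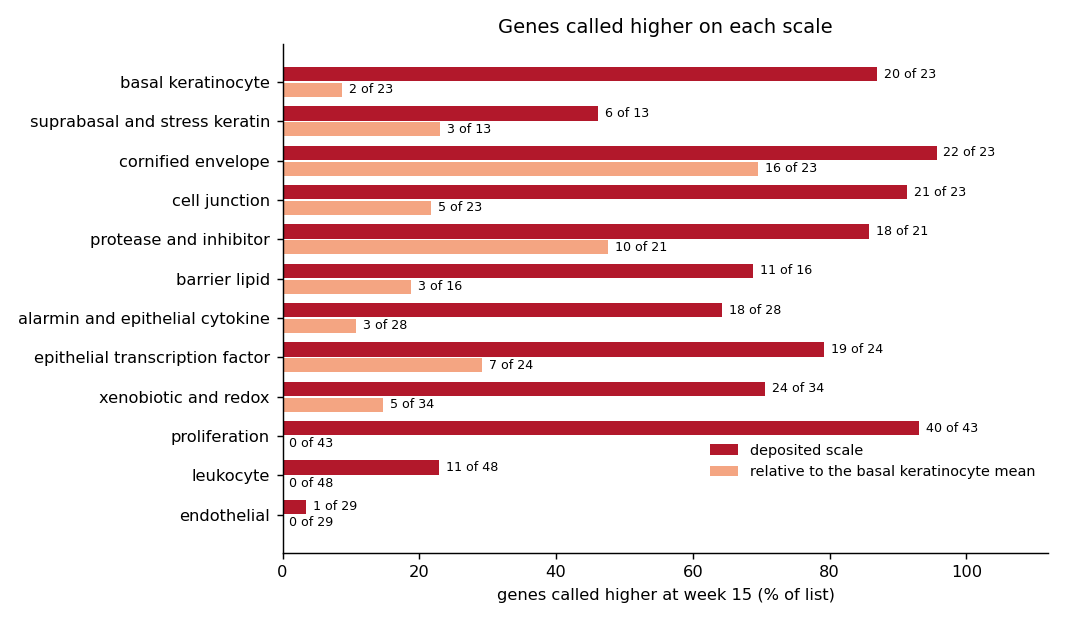
Share of each list called higher at week 15 by limma (horizontal axis, percent, with the counts beside each bar), on the deposited scale and after subtraction of each array's mean over the basal keratinocyte genes. On the latter scale 16 of 23 cornified envelope genes and 0 of 43 proliferation genes were called higher, against 0.596% of all probe sets.

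Proliferation genes rose in 40 of 43 cases, with a median of 0.82. Relative to the basal keratinocyte mean 0 of 43 rose and 2 fell, and the median was 0.06. On that scale 0.596% of all probe sets rose and 75.4% fell. Mki67, the nuclear antigen of cycling cells, was 8.66, 8.77 and 8.53 at week 6 and 9.60, 9.33 and 10.17 at week 15. The groups did not overlap, and it rose by 1.05 ± 0.28 (limma adjusted p = 0.011). The mitotic genes Ccnb2, Cdk1 and Top2a rose by 1.07, 1.05 and 1.01. Ccna2 rose by 0.99, but was at 0.89 and 0.72 and not called without week 6 replicate 2 or week 15 replicate 3. The proliferation score minus the basal score was -2.79, -2.77 and -2.63 at week 6 and -2.85, -2.72 and -2.59 at week 15, and these ranges overlapped. All 3 week 6 arrays lay below all controls for 42 of the 43 genes, against 22.3% of all genes. All 3 week 15 arrays lay above the same controls for 8, against 11.4%. With the GAPDH covariate 10 of 43 rose, against 4.9% of all probe sets, and the median was 0.81.

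In the stroma, of 10 small leucine-rich proteoglycans, which coat collagen fibrils, 5 fell and 0 rose. Ogn, osteoglycin, was 9.23, 9.09 and 9.50 at week 6 and 7.69, 7.59 and 7.65 at week 15. All week 15 arrays lay below all week 6 arrays, as they did for 25.6% of all genes, and the fall was 1.63 ± 0.18 or 3.1-fold (limma adjusted p = 9.23e-05). Week 6 was at the level of controls, 9.36 ± 0.35 (SD, n = 3), and so was week 29 at 9.38 ± 0.31. Aspn, asporin, was 9.12, 9.25 and 9.23 at week 6 and 7.43, 7.91 and 7.36 at week 15 and fell by 1.63 ± 0.16 (limma adjusted p = 5.43e-05). Lum, Omd and Dcn (lumican, osteomodulin and decorin) fell by 1.25, 1.26 and 0.85. The other 5 members were not called.

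Of 20 collagen genes 8 fell and 1 rose, with a median of -0.36. Col14a1, a collagen at fibril surfaces, fell by 1.51 ± 0.22 (limma adjusted p = 0.000343). The fibrillar collagen genes Col1a2, Col3a1 and Col5a1 fell by 0.97, 0.81 and 0.92, although the other probe set of Col5a1 was at -0.48 and not called, and Col6a3 fell by 0.96. Col1a1 was 10.22, 10.20 and 10.88 at week 6 and 10.02, 9.82 and 9.35 at week 15. Its groups did not overlap, but the difference of -0.70 ± 0.27 was not called (limma adjusted p = 0.0552). The basement membrane collagens of vessels and epithelium, Col4a1 and Col4a2, named after their values were seen, were at -0.16 and -0.05 and not called on the deposited scale. The 1 collagen gene that rose, Col18a1, also of basement membranes and named after its values were seen, was at 0.37 (-0.40 relative to the basal keratinocyte mean), and at 0.33 to 0.38 and not called without any 1 of the week 6 or week 15 arrays but week 6 replicate 3, or without week 29 replicate 2.

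Of 46 elastic fiber and matricellular genes 20 fell and 4 rose. Lama2, the laminin chain of muscle and nerve basement membranes, fell by 1.79 ± 0.16, and Igfbp5, an abundant growth factor binding protein, by 1.78 ± 0.28. The microfibril genes Mfap4, Mfap5 and Fbn1 fell by 1.59, 1.24 and 1.14. Against this direction Tnc, tenascin C, a matrix protein of wounds and tumors named after its values were seen, was 6.07, 6.45 and 6.95 at week 6 and 7.92, 7.0 and 7.08 at week 15 and rose by 0.85 ± 0.25 (limma adjusted p = 0.0195). It was at 0.64, 0.83 and 0.55 and not called without week 6 replicate 1, week 6 replicate 2 or week 15 replicate 1. Without week 6 replicate 3 the count of falling genes was 12, and without week 15 replicate 3 it was 11. The count of rising genes was 0, 1 and 1 without week 6 replicate 1, week 6 replicate 2 or week 15 replicate 1.

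Of 29 fibroblast identity genes 13 fell and 1 rose. Prrx1, a mesenchymal homeobox gene, was 8.69, 8.89 and 8.63 at week 6 and 6.66, 7.36 and 5.88 at week 15 and fell by 2.11 ± 0.28 (limma adjusted p = 0.000195). Pdgfra, the receptor that marks fibroblasts, fell by 1.14 ± 0.23, Dpt (dermatopontin) by 1.22 and the transporter gene Abca8a by 1.55. Sfrp4, a Wnt inhibitor, fell by 1.13 on its brightest probe set, while its other probe set rose by 0.36. Pdgfrb, the receptor of pericytes, rose by 0.53 (-0.23 relative to the basal keratinocyte mean), but was at 0.44 and 0.40 and not called without week 6 replicate 2 or week 15 replicate 1. C3, complement, was 6.57, 8.25 and 5.08 at week 15 against 4.77, 5.29 and 4.94 at week 6 and not called, although it was called at 1.63 and 2.41 without control replicate 2 or week 15 replicate 3. Both were named after their values were seen. With the muscle score as a covariate the fibroblast, collagen and proteoglycan list medians were -0.24, -0.52 and -0.54, with no gene called.

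Endothelial genes were mostly not called on the deposited scale, with 1 of 29 rising, 3 falling and a median of -0.01, and 26 of 29 fell relative to the basal keratinocyte mean, where 75.4% of all probe sets did. Pecam1, the platelet and endothelial adhesion molecule, was 8.66, 8.68 and 8.78 at week 6 and 9.12, 8.61 and 8.62 at week 15, and the groups overlapped (0.08 ± 0.14, limma adjusted p = 0.69). Vwf was at 0.23 and not called. The genes that fell were Fabp4, a fatty acid carrier of capillaries and fat, by 1.72 ± 0.20, and Mmrn1 and Lyve1, known from lymphatic vessels, by 1.22 ± 0.11 and 1.02 ± 0.19. Mmrn1 was 8.31, 8.26 and 8.23 at week 6 and 7.10, 6.92 and 7.11 at week 15 (limma adjusted p = 4.15e-05), with no overlap. Prox1, the lymphatic lineage factor, named after its values were seen, was at -0.33 and not called. Plvap, which forms the diaphragms of fenestrated capillaries, was 9.71, 9.77 and 9.90 at week 6 and 10.65, 10.51 and 10.25 at week 15. It rose by 0.67 ± 0.11 (limma adjusted p = 0.000768) to the level of controls, 10.50 ± 0.13 (SD, n = 3), and was at -0.09 relative to the basal keratinocyte mean. All 3 week 6 arrays lay below all controls for 19 of 29 endothelial genes, against 22.3% of all genes, and all 3 week 15 arrays for 16, against 17.4%, with the same controls in both counts.

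Of 24 genes of smooth muscle and pericytes 9 fell and 0 rose. Myh11, the smooth muscle myosin, was 11.13, 11.47 and 12.31 at week 6 and 12.11, 11.66 and 12.25 at week 15, and its groups overlapped (0.37 ± 0.33, limma adjusted p = 0.409). Cnn1 (calponin) and Acta2 (smooth muscle actin) were at 0.26 and -0.13 and not called. Among the members that fell, several are also known from striated muscle, Casq2 (calsequestrin of slow and cardiac muscle, by 2.14), Synpo2 (-1.78), Hspb6 (-1.37) and Synm (-1.34, with 1 of its 3 probe sets at 0.05). Other probe sets of Synpo2 were at 0.26 and -0.46, not called, and at -2.00, called. Lmod1, a smooth muscle leiomodin, fell by 1.51. Week 6 replicate 3 and control replicate 3 stood apart with Cnn1 at 11.38 and 11.58, against 9.34 to 10.55 in the other arrays of these 3 groups.

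Of 26 genes of nerve and Schwann cells 9 fell (34.6%) and 6 rose (23.1%), against 21.2% and 22.7% of all genes. S100b, a Schwann cell protein, was 8.25, 8.21 and 8.49 at week 6 and 6.72, 7.08 and 6.74 at week 15 and fell by 1.47 ± 0.18 (limma adjusted p = 0.000141). The axonal genes Stmn2, Prph and Uchl1 fell by 1.43, 1.22 and 1.04, and the myelin gene Pmp22, also made by fibroblasts, by 1.17. Among the genes that rose were Ngfr and Erbb3, by 0.63 and 0.69, and Ngfr is also a basal keratinocyte receptor. Both were named after their values were seen, and relative to the basal keratinocyte mean they were at -0.13 and -0.07.

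In the adipocyte list 6 of 15 genes fell (40%) and 4 rose (26.7%), against 21.2% and 22.7% of all genes. Adipoq and Plin1, the defining markers, were at 0.14 and -0.11 and not called. The falling genes were of fatty acid handling, with Lpl, lipoprotein lipase, at -1.90, Plin4 at -1.82 and G0s2 at -1.75. Cidea and Dgat2, of lipid droplets and triglyceride synthesis, rose by 1.08 and 0.98, and Dgat2 was at 0.87 and 0.79 and not called without week 6 replicate 2 or week 15 replicate 3. The other probe set of Dgat2 was at 0.47 and not called.

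Leukocyte genes rose in 11 of 48 cases and fell in 2, a share of rises near that of all genes, and relative to the basal keratinocyte mean 0 rose and 25 fell, where 75.4% of all probe sets fell. Irf8, a transcription factor of dendritic cells and B cells, was 7.30, 7.10 and 7.30 at week 6 and 8.19, 8.16 and 8.12 at week 15. The 3 week 15 arrays lay within 0.07 of each other and above week 6, and the rise was 0.92 ± 0.10 (limma adjusted p = 8.98e-05). The MHC class II genes RT1-Da and RT1-Bb rose by 1.03 and 0.85, and Jchain of plasma cells by 0.95. RT1-Da was at 0.88 to 0.89 and not called without week 6 replicate 1 or 2 or week 15 replicate 1. RT1-Bb was not called without any 1 of 7 arrays (0.68 to 0.85), nor was Jchain without any 1 of 10 (0.61 to 1.07). The other probe set of RT1-Bb was at 0.01 and not called. Mrc1, the mannose receptor of tissue macrophages, was 7.61, 6.01 and 5.88 at week 15 against 7.44, 7.43 and 7.59 at week 6, so that replicate 1 alone kept the earlier level. It fell by 0.99 and was not called without any 1 of 10 arrays (-1.02 to -0.68). The other falling gene, the macrophage gene Adgre1, named after its values were seen, was at -0.78 and not called without any 1 of 8 arrays (-0.84 to -0.54). The defining markers Ptprc, Cd68 and Cd3e were at 0.35, 0.12 and 0.77 and not called. The groups of Cd3e did not overlap, and limma called it when only the arrays of weeks 6 and 15 were fitted (adjusted p = 0.0144), with the dim filter, with a replicate block, and without week 15 replicate 3 (0.98) or any 1 of the week 29 arrays (0.77, adjusted p from 0.00524 to 0.0492). Its other probe set was at 0.07. The count of rising genes was 6, 5 and 6 without week 6 replicate 1, week 6 replicate 2 and week 15 replicate 2, and that of falling genes was 5 without week 15 replicate 1. With the GAPDH covariate 2 of 48 rose, against 4.9% of all probe sets.

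**Figure D4:**
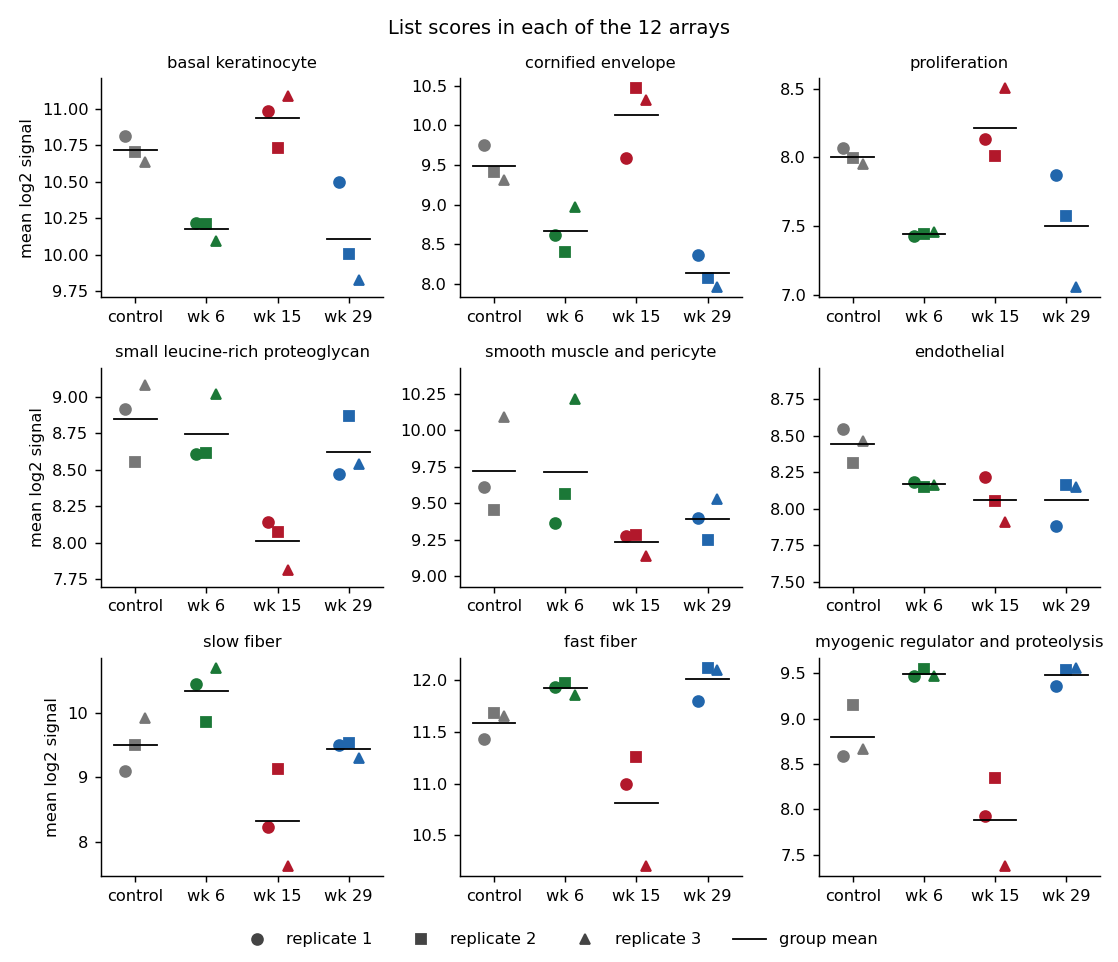
Mean log2 signal of 9 lists (vertical axes, a separate scale for each list) in each of the 12 arrays, by group (horizontal axes). Point shape gives the replicate number and the line the mean of 3 arrays. Mean slow fiber, fast fiber and myogenic scores are lowest at week 15, and the endothelial scores of weeks 6 and 15 overlap. The slow fiber score of week 15 replicate 2 (9.14) lies above that of control replicate 1 (9.10).

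Striated muscle genes fell in 135 of 145 cases. The genes of slow fibers, which contract slowly and rely on oxidative metabolism, had a median of -2.35, with 10 of 12 lower. Tnnt1, slow troponin T, was 9.0, 7.73 and 10.46 at week 6 and 4.75, 7.15 and 3.97 at week 15. The groups did not overlap, but the lowest week 6 array and the highest week 15 array, both replicate 2, were 0.57 apart, and week 6 spread over 2.74 log2 units. Tnnc1, the troponin C of slow and cardiac muscle, was 9.75, 8.81 and 11.16 at week 6 and 5.90, 7.77 and 4.89 at week 15, in the same order of arrays, and fell by 3.72 ± 0.75 (limma adjusted p = 0.0025). Myh7, the slow myosin, was 7.99, 4.83 and 6.23 at week 6 and 3.42, 4.26 and 3.39 at week 15, near the floor. It fell by 2.66 ± 0.68 (limma adjusted p = 0.00953). Controls were at 3.96, 3.42 and 5.69, with replicate 3 alone within the range of week 6. Myl2, the slow regulatory light chain, fell by 2.71, but its other probe set was at 0.23. It was at -2.31, -2.29 and -2.46 and not called without week 6 replicate 1, week 6 replicate 3 or week 15 replicate 1. Myoz2, a Z-disc protein of slow fibers, fell by 2.76 ± 0.47. The 1 slow fiber list gene that rose was Tpm3, named after its values were seen, whose other transcripts are made in non-muscle cells. Its brightest probe set rose by 0.97, and its probe sets ran from -0.83, which was not called, to 0.97.

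Fast fiber genes fell in 18 of 19 cases, with a median of -1.06. Tnnt3, fast troponin T, was 14.27, 14.30 and 14.28 at week 6 and 13.38, 13.73 and 12.56 at week 15 and fell by 1.06 ± 0.22 (limma adjusted p = 0.00293). The 3 week 6 arrays lay within 0.03 of each other near the top of the scale, and the week 15 arrays spread from 12.56 to 13.73. Myh2, the myosin of fast oxidative fibers, fell by 2.10 ± 0.52, and Mybpc2 and Casq1, of fast sarcomeres and calcium stores, by 1.63 and 1.53. The developmental genes Myl4 and Myh3, of embryonic muscle, fell by 2.22 and 1.82. The slow minus fast score was -1.49, -2.12 and -1.16 at week 6 and -2.77, -2.12 and -2.58 at week 15, so that replicate 2 of both weeks had the same value and the groups met there. It was -2.34, -2.17 and -1.73 in controls.

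The size of the fall differed with brightness, and was smallest at both ends of the scale. Among muscle genes with a week 6 mean above 14, the median difference was -0.97 over 17 genes. It was -2.10 over the 45 genes between 10 and 12 and -1.13 over the 24 genes up to 8. Acta1, the brightest, was 14.70, 14.71 and 14.71 at week 6 and 14.57, 14.66 and 14.03 at week 15, with a difference of -0.28 ± 0.13 that was not called (limma adjusted p = 0.112). Ckm, the muscle creatine kinase, fell by 0.83 from 14.54 ± 0.01 to 13.72 ± 0.58 (SD, n = 3). Of the 19 fast genes 7 lay above 14, with a median of -0.79, and of the 12 slow genes only 1, Myl3, named after its values were seen, at -1.32. Between 12 and 14 the 4 slow genes had a median of -2.14 and the 5 fast genes -1.53. Between 10 and 12 the medians were -0.585 and -0.618, over 2 slow genes (-2.14 and 0.97) and 2 fast genes (-1.34 and 0.10). Between 8 and 10 they were -3.72 and -1.82, over 3 genes each, and up to 8 they were -1.35 and -0.87, over 2 each. Fiber type and brightness thus moved together, and their parts in the difference were not tested apart.

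**Figure D5:**
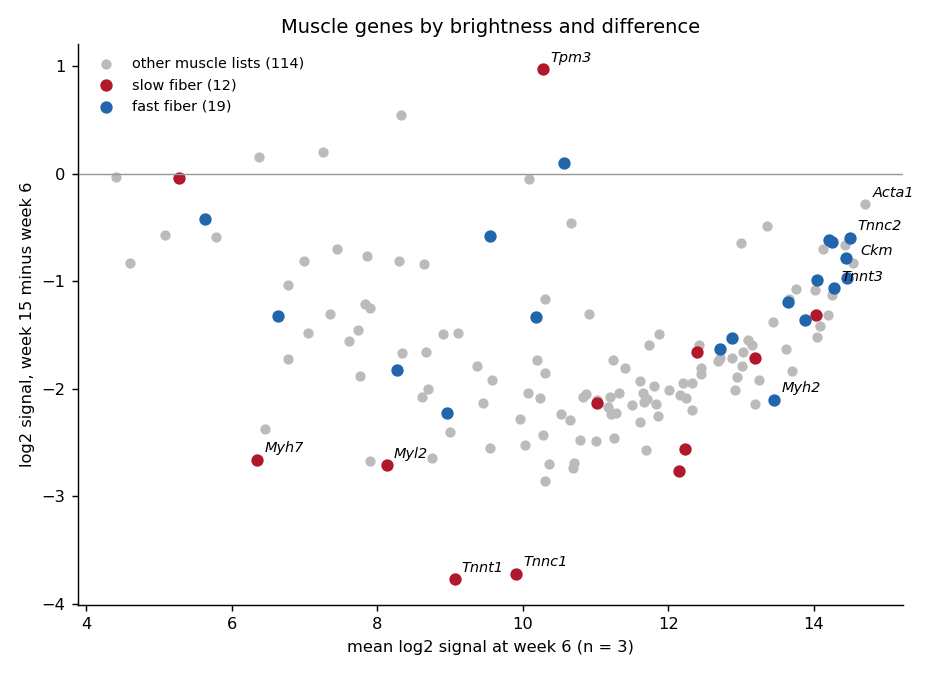
Difference in log2 signal between weeks 15 and 6 (vertical axis) against the mean log2 signal at week 6 (horizontal axis, n = 3) for 145 muscle genes. The 7 fast fiber genes above 14 had a median difference of -0.79, and the 5 between 12 and 14 one of -1.53. Tnnt1 and Tnnc1 lie lowest, at -3.77 and -3.72.

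Sarcomere genes shared by all fibers fell in 30 of 31 cases, with a median of -1.74. Capn3, the muscle calpain, fell by 2.70 ± 0.40, and the thin filament genes Lmod2, Lmod3 and Tmod4 by 2.47, 2.29 and 2.24. Ttn (titin) fell by 1.17. Excitation and calcium genes fell in 26 of 27 cases, with a median of -1.72, among them Trdn (triadin, -2.58), Mrln (myoregulin, -2.53), Cacng1 (a calcium channel subunit, -2.43), Jph1 (junctophilin, -2.28) and Jsrp1 (-2.23). Ryr1, the calcium release channel, was 12.77, 12.89 and 12.37 at week 6 and 11.25, 11.64 and 9.92 at week 15 and fell by 1.74 ± 0.35. The fetal acetylcholine receptor subunit gene Chrng, named after its values were seen, was at 0.15 and not called. Energy metabolism genes of muscle fell in all 30 cases, with a median of -1.77. Ppp1r3a, the glycogen-targeting subunit of muscle phosphatase, fell by 2.69 ± 0.39, the phosphorylase kinase gene Phkg1 by 2.55, the AMP deaminase gene Ampd1 by 2.31 and the fatty acid carrier gene Fabp3 by 2.23.

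Regulators of the muscle program fell in 21 of 26 cases and 1 rose, with a median of -1.92. Myod1, a factor that sets myogenic fate, was 8.19, 7.93 and 7.59 at week 6 and 5.48, 5.57 and 4.63 at week 15. The groups were separated by 2.02, and the fall was 2.68 ± 0.27 or 6.39-fold (limma adjusted p = 5.06e-05). Controls were at 6.87, 7.77 and 6.98, all above week 15, with replicate 2 within the week 6 range. Myf6, a relative of Myod1 in mature fibers, fell by 2.74 ± 0.42, and the homeobox gene Six4 by 2.64. Trim63 (MuRF1), a ubiquitin ligase that rises in atrophy, was 10.09, 10.52 and 10.33 at week 6 and 7.72, 8.31 and 6.32 at week 15 and fell by 2.86 ± 0.41 (limma adjusted p = 0.000304). Asb5 fell by 2.49. Fst, follistatin, an inhibitor of myostatin named after its values were seen, rose by 0.55, or was at -0.21 relative to the basal keratinocyte mean, but was at 0.43 to 0.50 and not called without week 6 replicate 1 or 3 or week 15 replicate 1 or 3. The genes Lrrc39, Arpp21 and Lrrc14b, outside the lists but among the 15 largest falls, were at -2.71, -2.64 and -2.62.

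Upstream sequence is shown for 2 genes that fell, Myoz2 and Cox6a2, chosen because it holds both CAGCTG, an E-box bound by MYOD1 and its relatives, and a MEF2 site, which are known elements of muscle promoters. Matches on either strand are in capitals, and the bases are from RefSeq, build GRCr8, at chr2:213852779-213853028 (minus strand) for Myoz2 and chr1:192219717-192219966 (minus strand) for Cox6a2.
Myoz2: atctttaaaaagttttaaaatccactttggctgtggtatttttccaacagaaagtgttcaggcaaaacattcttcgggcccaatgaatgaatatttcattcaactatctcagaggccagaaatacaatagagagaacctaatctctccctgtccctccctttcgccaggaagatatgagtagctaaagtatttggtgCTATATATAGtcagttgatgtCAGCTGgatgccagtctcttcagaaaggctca
Cox6a2: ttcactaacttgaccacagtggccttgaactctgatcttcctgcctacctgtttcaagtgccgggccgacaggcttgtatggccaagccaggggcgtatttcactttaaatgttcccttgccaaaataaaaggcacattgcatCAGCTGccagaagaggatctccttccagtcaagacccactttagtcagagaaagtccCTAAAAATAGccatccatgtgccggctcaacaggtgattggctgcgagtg
In Myoz2 the MEF2 site starts 53 and the E-box 32 bases before the gene start, in Cox6a2 50 and 107 bases before it. Of 135 muscle list genes that fell, 105 had a RefSeq promoter, and 32 of them (30.5%) held the E-box and 18 (17.1%) a MEF2 site. Among 11700 array genes these shares were 13.5% and 1.77%. The MEF2 pattern can overlap TATAAA, which 21% of the falling muscle genes and 8.62% of array genes held.

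Beside the controls, the muscle lists crossed over. All 3 week 6 arrays were above all controls for 117 of 145 genes, against 20.4% of all genes, and all 3 week 15 arrays below them for 94, against 17.4%, with the same controls in both counts. Without week 15 replicate 3, the array with the lowest muscle score, 132 muscle genes were called lower, with list medians from -1.85 for slow to -0.73 for fast fibers. With the GAPDH covariate 69 of 145 were called lower, against 10.7% of all probe sets, among them 1 of 19 fast, 3 of 12 slow and 11 of 31 common sarcomere genes. The medians of these 3 lists in that fit were -0.84, -1.75 and -1.27.

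Of 79 respiratory chain genes 68 fell and 3 rose, with a median of -0.68. Cox6a2 and Cox8b, the muscle forms of cytochrome c oxidase subunits, fell by 1.92 ± 0.38 and 2.15 ± 0.32, while the general forms Cox6a1 and Cox8a, named after their values were seen, rose by 0.52 ± 0.15 and 0.33 ± 0.11 (limma adjusted p = 0.0164 and 0.0313). Relative to the basal keratinocyte mean both were lower, at -0.24 and -0.43. Cox6a1 was at 0.42 and not called without week 6 replicate 2, nor was Cox8a without week 6 replicate 1 (0.33), week 6 replicate 2 (0.26) or week 15 replicate 3 (0.26). The third gene that rose, Ndufa4l2, was also named after its values were seen. Cox5a, Ndufs1 and Uqcrfs1, of complexes IV, I and III, fell by 1.39, 1.37 and 1.13. Cytosolic ribosomal protein genes rose in 39 of 44 cases, with a median of 0.38, but relative to the basal keratinocyte mean 0 rose and 15 fell, a smaller share than the 75.4% of all probe sets. Rpl3 was 13.35, 13.11 and 13.27 at week 6 and 13.86, 13.78 and 13.95 at week 15 and rose by 0.62 ± 0.16 (limma adjusted p = 0.00986). Rpl3l, its striated muscle paralog, was 12.31, 12.38 and 12.24 at week 6 and 10.28, 11.04 and 9.07 at week 15 and fell by 2.18 ± 0.36 (limma adjusted p = 0.000657). Cross-hybridisation between the 2 was not tested. The ribosomal count was 22 without week 6 replicate 2, 24 without week 15 replicate 3 and 0 with the GAPDH covariate. In that last fit the list median was 0.31, and 4.9% of all probe sets rose.

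Among the largest rises, genes outside the lists were Anxa9, an annexin (2.02 ± 0.45), Cd24, a surface glycoprotein of epithelial cells (1.95 ± 0.37), and the little characterised genes C20h6orf15 (2.15 ± 0.34) and C18h5orf46 (2.10 ± 0.41). Cd24 was 8.38, 7.80 and 8.64 at week 6 and 9.45, 10.85 and 10.39 at week 15, and C20h6orf15 was 8.15, 7.86 and 8.36 at week 6 and 9.72, 10.93 and 10.18 at week 15. In both the groups did not overlap.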

How the data were processed

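RNA of 12 rat esophagus samples in 4 groups of 3 was measured, each on 1 array. The deposited values are log2 signals per probe set, and per the submitters' processing notes the authors used Affymetrix Expression Console. How probes were summarised and arrays normalized, which sets how far values compare between arrays, is not stated there. Arrays have no read depth, and 3 arrays per group limit the precision.

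The 57 array control probe sets were left out of tests. Of 31042 others, 20826 had 1 gene symbol in the platform annotation, 436 several and 9780 none. Gene IDs of 20758 matched RefSeq, and 0 symbols changed. A gene was represented by its probe set with the highest mean over 12 arrays, and 70 genes had probe sets called in opposite directions.

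All probe sets and all 4 groups were fitted in 1 model with limma 3.58.1 (R 4.3.3, lmFit and eBayes, 8 residual degrees of freedom), with Benjamini-Hochberg adjustment over 31042 probe sets and calls at 0.05. The main fit had no block, since the labels do not say what replicate numbers mark. Deviations from the group means correlated by 0.15, -0.20 and -0.0005 between same-numbered arrays of weeks 6 and 15. These correlations cannot decide whether such arrays shared an animal or a day. Simulated data for this comparison had 50 probe sets changed at each fold. In them limma recovered 58% at 1.5-fold, 90% at 2-fold, 90% at 3-fold and 100% at 4-fold. Of its 179 calls over 31042 probe sets, 10 were false. The real comparison had 11723 calls, and the SD of its muscle score was 0.014 at week 6 and 0.65 at week 15. Whether the simulated rates hold under such conditions was not tested, so they describe the simulated data only.

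Members and lists were chosen with earlier results of these data known. Named genes are the 15 largest rises and falls with groups that do not overlap, up to 5 called genes of each list by size (2 where none was called), defining cell markers, and Mki67, Ptgs2, S100a8, S100a9, Myod1, Ogn and S100b. Others are given as named after their values were seen. Alternatives were other normalizations and scales, a filter, variance models, covariates, a replicate block, another probe set rule and leaving out each array.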

Additional observations from a re-analysis of the deposited data

How the results depend on the processing

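Counts of probe sets called, of epithelial genes higher and of stromal and muscle genes lower stayed within 1.5 times of 11723, 159, 75 and 135 in a fit of the 6 arrays alone, after median or quantile normalization, with the dim filter, with robust variances and with array weights. With a replicate block they were 11073, 159, 70 and 134, and the labels do not say whether the arrays' numbers pair them. Leaving out 1 array at a time gave 8965 to 11704 probe sets, 141 to 165 epithelial, 59 to 81 stromal and 130 to 136 muscle genes. Relative to the basal keratinocyte mean, 23592 probe sets were called, 0.784% of them higher. On that scale 54 of 205 epithelial genes were higher, against 0.596% of all probe sets. Of 247 stromal genes 191 were lower, where 75.4% of all probe sets were. With a 2-fold minimum the counts were 2203 (27.6% higher), 103 and 36. With a muscle score covariate all counts were 0, with standard errors larger for some genes and smaller for others. With the GAPDH difference 4849 probe sets (31.4% higher) and 69 muscle genes were called. Of 4926 values of 206 named genes, 428 kept their direction but lost their call. Another 48 turned, counting only genes called in the main fit or in the alternative. The same rule holds for the turned genes listed below. The cause was not tested beyond the construction of each scale. Subtracting the basal keratinocyte mean lowers every difference by 0.76, and among genes called on either scale it turned Adipoq (-0.62), Cd68 (-0.65), Chrng (-0.61), Col18a1 (-0.40), Cox6a1 (-0.24), Cox8a (-0.43), Erbb3 (-0.074), Fst (-0.21), Ivl (-0.65), Ngfr (-0.13), Pdgfrb (-0.23), Pecam1 (-0.68), Plvap (-0.092), Ptgs2 (-0.58), Rpl3 (-0.14), Rpl39 (-0.24) and Tap1 (-0.35). By the probe set of middle brightness in place of the brightest, the direction turned for Dst (1.16), Myl2 (0.23), Pdgfrb (-0.057), Plbd1 (0.18), Sfrp4 (0.36), Synm (0.051) and Tpm3 (-0.83). The muscle score is a mean of muscle list genes. Under it those genes, such as Casq1, Ryr1 and Ttn, differ by 0 on average by construction, so some had to turn. With a muscle score covariate, falls turned for Art1 (0.26), Bhlhe41 (0.24), Casq1 (0.69), Ckm (0.48), Cox6a2 (0.59), Hspb6 (0.51), Jsrp1 (0.34), Lmod2 (0.062), Lrrc39 (0.050), Mybpc2 (0.85), Myh2 (0.87), Myl3 (0.51), Nr4a1 (0.29), Rpl3l (0.18), Ryr1 (0.41), Tmod4 (0.027), Tnnt3 (0.35), Ttn (0.71) and Uchl1 (0.028), and rises for Ccna2 (-0.19), Ccnb2 (-0.0074), Cox8a (-0.034), Mki67 (-0.10) and Sox2 (-0.25).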

Other observations

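Genes of sterol and fatty acid synthesis rose in 16 of 24 cases and fell in 1, with a median of 0.53, while relative to the basal keratinocyte mean 0 rose and 9 fell, a smaller share than the 75.4% of all probe sets. Sqle, squalene epoxidase, was 7.45, 6.95 and 7.86 at week 6 and 8.21, 9.02 and 9.01 at week 15, and rose by 1.33 ± 0.32 (limma adjusted p = 0.00728). Its groups did not overlap, but its week 15 arrays did not stand apart from the controls, at 8.32, 7.79 and 8.32. Fasn, the fatty acid synthase, was 9.08, 8.61 and 8.79 at week 6 and 9.77, 9.78 and 10.34 at week 15 against controls at 9.66, 9.28 and 9.46, and rose by 1.13 ± 0.21 (limma adjusted p = 0.00146). Week 6 lay below and week 15 above all controls for Fasn and for Cyp51, the lanosterol demethylase, which rose by 1.01 ± 0.17. Scd2, a fatty acid desaturase, and Lss, lanosterol synthase, rose by 1.01 and 0.98. Other probe sets of Scd2 were at 0.18 and 1.13, not called, and at 0.43, called. The gene that fell, Fads1, a desaturase of polyunsaturated fatty acids named after its values were seen, was at -0.88.

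Interferon response genes were mostly not called, with 4 of 31 rising, 2 falling and a median of 0.12, and the rising genes were 2, 1 and 1 without week 6 replicate 1, week 6 replicate 2 or week 15 replicate 1. Slfn4, a schlafen gene of myeloid cells, rose by 1.17, but was not called without week 6 replicate 1, 2 or 3 (1.22, 1.16 and 1.15) or week 15 replicate 1 (0.73). The other probe set of Slfn4 was at 0.34 and not called. Bst2 (tetherin) rose by 0.77 ± 0.21 and Tap1, a peptide transporter, by 0.41, and Tap1 was at 0.36, 0.41 and 0.36 and not called without week 6 replicate 1, week 6 replicate 2 or week 15 replicate 1. On its other probe set Tap1 was at 0.18 and not called. Ifi44 was 6.90, 6.96 and 7.14 at week 6 and 6.59, 5.89 and 6.24 at week 15 and fell by 0.76 ± 0.16 (limma adjusted p = 0.00267), below every control. The chemokine gene Cxcl9 fell by 0.48, and was not called without week 6 replicate 3 (-0.31), week 15 replicate 1 (-0.53) or week 15 replicate 3 (-0.32). On its other probe set Cxcl9 was at -0.21 and not called. Of the immediate early and clock genes 5 of 29 rose (17.2%) and 8 fell (27.6%), against 22.7% and 21.2% of all genes. The list median was -0.14. Junb and Ier2, early response genes, rose by 0.91 ± 0.15 and 0.83 ± 0.15 to levels above all controls, and Nr4a1, an orphan nuclear receptor, fell by 1.19 ± 0.27. Bhlhe41, a repressor of the circadian clock, was 10.45, 9.65 and 9.14 at week 6, above all controls, and 8.15, 8.53 and 6.49 at week 15, below them, and fell by 2.02 ± 0.44 (limma adjusted p = 0.00366). Nr1d2, a clock repressor, fell by 0.81 ± 0.14. The labels give no hour of sampling.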
